A study of Mus musculus with 18 samples.

Results

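RPE/choroid of mice carrying the Abca4 knock-in allele L541P;A1038V was compared with RPE/choroid of Abca4-/- knockout mice, gene by gene, as knock-in minus knockout. The 6 libraries of these groups, 3 of each, are 6 of the 18 libraries of a mouse RNA-seq study of retina and RPE/choroid. Of 22558 genes in the deposited table, 15454 passed the expression filter and were tested. The knock-in mice were homozygous for the allele, the knockout mice carried Abca4-/-, and all mice were 30 days old and of a mixed 129SV and C57BL/6 background. The 3 wild-type RPE/choroid libraries, of the same age and background, stayed in the fit and are given beside the values. The tissue is the retinal pigment epithelium (RPE) dissected together with the vascular choroid behind it, so each library is a mixture of cell types, and fewer cells of a type cannot be told apart from less RNA per cell. Nothing in the labels ties each library to its own animal, and p-values therefore cover only the variation seen among these libraries. Libraries are numbered 0 to 2 as in the deposited table, since nothing links these numbers to those of the labels.

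Abca4 is a lipid transporter of photoreceptor outer segment discs, where it moves retinoid adducts of phosphatidylethanolamine so that they can be cleared. When it fails, bisretinoids build up in the RPE, which engulfs shed outer segments, and variants of the human gene cause Stargardt disease. The knockout makes no working transporter, while the knock-in makes a transporter with a pair of substitutions known from patients to impair its folding. By design, the comparison sets a tissue that should meet an altered Abca4 protein against one that should meet none, and no protein was measured. Each allele was carried by its own group of mice on a mixed background. Other genetic differences between these groups cannot be told apart from the allele.

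The codons that the knock-in allele is named for are shown first, since they are what separates it from the normal gene. Each line gives reference mouse sequence on the coding strand, from the GENCODE M21 transcript (GRCm38), with the named codon in capitals. It is not sequence read from these mice.
L541P: cgagccctgtctCTCctggaggagaac
A1038V: tcctgggaggagGCCcagcttgagatg
The first lies in exon 12 (chr3:122102741-122102743) and the second in exon 21 (chr3:122126182-122126184), both coding. The capitals are the codons for leucine and alanine, the residues that the allele's name gives as replaced.

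Few genes differed between knock-in and knockout RPE/choroid. The largest rises in knock-in were those of Trim12a and Trim30d, members of a family of antiviral ubiquitin ligases, and of the transcripts BC002163 and AA465934. Among called genes with a mean of at least 1 FPKM in a group, predicted genes (Gm) left out, the largest falls were those of Slfn8, a Schlafen gene, Pttg1, which encodes securin, and Hbb-b2, a beta-globin gene. Hbb-b2 can share reads with the near-identical Hbb-b1, which was higher in knock-in FPKM without a call. By edgeR's quasi-likelihood test, 70 of the 15454 genes were called at a Benjamini-Hochberg adjusted p under 0.05, which is 0.453% of the genes tested. Of these, 37 were higher (0.239%) and 33 lower (0.214%) in knock-in. The differences reached 2-fold in 27 genes and 4-fold in 14, while 21 were under 1.5-fold, and the median fold was 1.73 among the higher and 1.89 among the lower genes. In TMM-scaled CPM, a library's depth-corrected counts and the scale of the test, the knock-in and knockout libraries lay apart in 70 of the 70, against 22% of all tested genes. In FPKM they lay apart in 64 of the 70, against 9.39% of all tested genes, and overlap is stated in FPKM from here on. An unadjusted p under 0.05 was found for 1890 genes where 773 would be expected by chance, and the median difference of all tested genes was log2 0.00. In mean log2 CPM, wild type lay nearer to knock-in in 58 of the 70 genes, against 60.6% of all tested genes. In the same fit, 40 of the 70 were also called in knockout minus wild type only and 7 in knock-in minus wild type only. The remaining genes were called in neither (23), with 0 called in both.

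The number of calls varied with the libraries in the fit. Fitted without wild type, the same 6 libraries gave 198 calls of 15292 genes (1.29%), 93 higher and 105 lower, among them 69 of the 70. Wild-type library 2 carried the most retinal RNA, with a summed level of the rod gene list of 3989 FPKM against 371 to 936 in the other 8 libraries. Without it 190 genes were called. Leaving out knock-in 0, 1 or 2 gave 29, 33 or 34 calls, leaving out knockout 0, 1 or 2 gave 74, 30 or 28, and leaving out wild-type 0 or 1 gave 79 or 50. In all, 20 of the 70 genes kept their call without each of the 9 libraries in turn. Assigned fragments ranged from 14.62 to 20.42 M in knock-in and from 19.1 to 23.69 M in knockout. Knock-in library 2 was female by Xist and Ddx3y, and the other 8 RPE/choroid libraries were male. The authors' deposited table calls 347 of 14732 genes for this pair, 146 higher and 201 lower in knock-in, and 52 genes were called in both analyses, all 52 with the same direction.

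**Figure D1:**
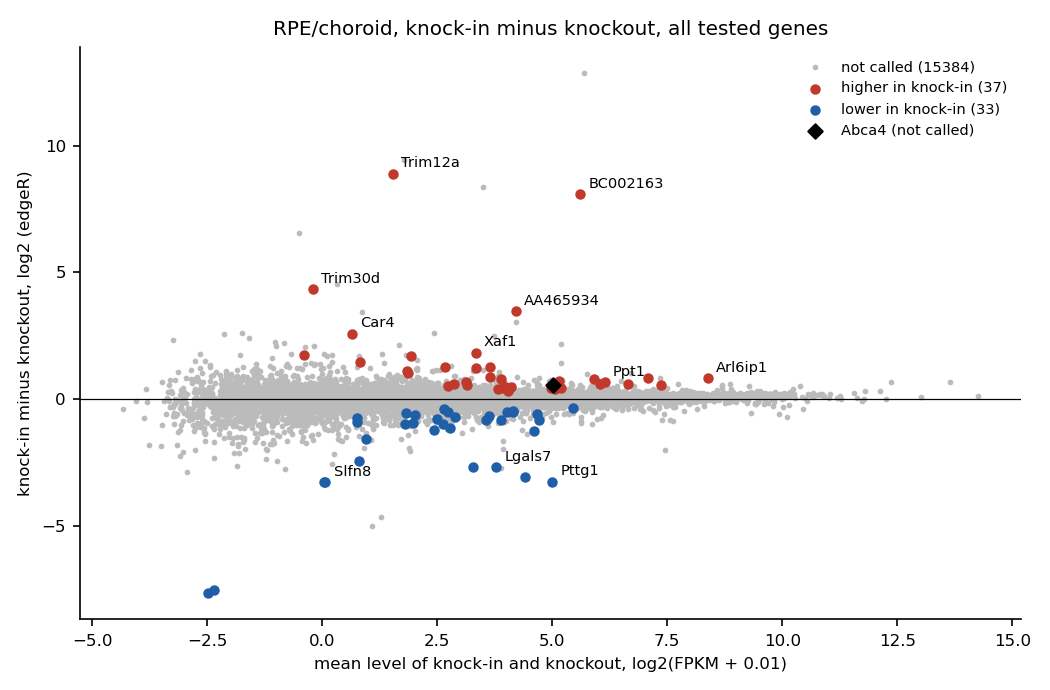
Difference between knock-in and knockout (log2, vertical axis) against the mean level of both groups (log2 of FPKM + 0.01, horizontal axis) for each tested gene in RPE/choroid. The 37 genes called higher and the 33 called lower in knock-in are coloured, and Abca4 is the black diamond at a difference of 0.56.

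The tissue carried its defining markers in every library. Rpe65, the isomerase of the visual cycle, was at 844, 1075 and 1602 FPKM in knock-in and 955, 983 and 1190 in knockout. Ttr, a retinol transport protein, was at 3976, 4292 and 6755 against 4177, 3651 and 3988 FPKM. Best1 was under 1 FPKM in all of them. Other tissues were present too. The summed level of the skeletal muscle list was 9945 to 15362 FPKM in knock-in and 8990 to 11401 in knockout, and that of the lens list 564 to 2361 and 211 to 3479. The rod list summed to 498 to 695 FPKM in knock-in and 542 to 936 in knockout. None of the 27 tested rod, 24 lens or 35 muscle genes was called, and the part of these tissues in the results was not tested beyond the score terms given below.

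Abca4 transcripts were detected in both groups, and all 3 knock-in libraries lay above all 3 knockout libraries. The gene (chr3:121747377-121882979, mm9) stood at 36.7, 36.6 and 42.5 FPKM in knock-in and at 26.5, 25.6 and 26.2 FPKM in knockout, with 35.4, 38.4 and 59.5 FPKM in wild type. The difference was log2 0.56 (SE 0.168), 1.47-fold, which did not pass over all genes (adjusted p = 0.246 by edgeR). It passed in the fit of the compared groups alone (log2 0.55, adjusted p = 0.00345), without wild-type library 2 (0.56, 0.00246), by DESeq2 (0.55, 0.0351) and with a term for rod gene content (0.64, 0.00361). In the authors' deposited table, q was 0.00347. The median of the rod list, in which Abca4 is the 1 member above 0, was log2 -0.51. In retina the same genotypes differed by log2 1.38 in Abca4 (adjusted p = 5.54e-07), and the difference between tissues was log2 -0.85 (adjusted p = 0.125). Fragments were counted over the whole gene, so these levels do not show which part of the transcript the knockout keeps.

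A pair of Trim genes that lie close together on chromosome 7 rose. Genes of this cluster code for relatives of TRIM5, proteins that restrict viruses. Trim12a (chr7:111448410-111473352, mm9) was at 4.61, 6.86 and 5.93 FPKM in knock-in and at 0, 0 and 0.0238 in knockout. In fragments this was 538 over the 3 knock-in libraries and 1 over the 3 knockout libraries, a ratio of 647 per assigned fragment, with a 95% interval of 116 to 25602 from counting error alone. It was at 0.0300, 0.0396 and 0.133 FPKM in wild type, so 3 of the 9 libraries, those of knock-in, held nearly all of its RNA (adjusted p = 7.08e-05 by edgeR). Trim30d (chr7:111618528-111656363) was at 1.06, 1.75 and 2.09 FPKM in knock-in and 0.0841, 0.0526 and 0.109 in knockout. The fragments were 300 and 18, a ratio of 20 (95% interval 12.5 to 34.3 from counting error alone), and the test gave log2 4.34 (SE 0.332, adjusted p = 4.45e-04). Wild type was at 0.0517, 0.124 and 0.148 FPKM, nearer to knockout than to knock-in. The authors' deposited table calls Trim30d (q = 0.00347) and not Trim12a (q = 0.740). Both genes kept their call without each library. The cluster holds near-identical copies, and reads could be divided between them in the counting. The other 6 tested genes of the Trim12 and Trim30 cluster were not called, and the median of the 8 was log2 0.09.

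The transcripts BC002163 and AA465934 were also far higher in knock-in than in knockout. BC002163 (chr16:42955692-42956192) was at 99.3, 99.3 and 92.2 FPKM in knock-in and at 0, 0.633 and 0.409 in knockout, or 1878 against 8 fragments, a ratio of 282 (95% interval 143 to 655 from counting error alone; adjusted p = 1.92e-05 by edgeR). Wild type, at 103, 107 and 69.0 FPKM, stood with knock-in. In the authors' deposited table q was 0.0593, without a call. AA465934 (chr11:83105200-83112479) was at 40.0, 31.6 and 29.5 FPKM in knock-in and 4.99, 2.39 and 2.09 in knockout (log2 3.46, SE 0.214, adjusted p = 9.25e-05), with wild type at 47.6, 36.0 and 36.9. Here too the wild-type libraries lay close to knock-in and far from knockout.

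The other large rises were genes of varied roles, and the test is edgeR's in each case. Car4, a membrane-bound carbonic anhydrase, was at 2.66, 2.12 and 3.19 FPKM in knock-in against 0.356, 0.599 and 0.361 in knockout (log2 2.58, SE 0.256, adjusted p = 0.00218). Xaf1, an interferon-induced gene of cell death control, was at 11.7, 15.2 and 20.4 against 4.07, 4.55 and 4.58 FPKM (log2 1.83, SE 0.175, adjusted p = 0.00306). In both genes the lowest knock-in library was more than 2-fold above the highest knockout library. Npy, neuropeptide Y, was at 19.6, 20.3 and 13.2 FPKM against 7.47, 7.80 and 6.84 (log2 1.26, adjusted p = 0.00374). Tlcd2 was at 15.9, 14.1 and 12.6 against 6.55, 5.75 and 5.66 FPKM (log2 1.23, adjusted p = 4.48e-04). Fam69c was at 6.62, 5.22 and 5.58 against 2.18, 1.45 and 1.75 FPKM (log2 1.70, adjusted p = 0.00542). Of these 5 genes Fam69c had wild type nearer to knockout, at 3.07, 1.74 and 2.70 FPKM, and the others had it nearer to knock-in. All 5 kept their call without each library.

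Calls of 3 further rises were lost in some of the fits with 1 library left out. Over those 9 fits the difference stayed at log2 1.64 to 1.94 for Il12b, 1.13 to 1.35 for Myl4 and 1.31 to 1.69 for Slc6a4. Il12b, the shared subunit of interleukins 12 and 23, was at 1.19, 1.15 and 1.16 FPKM in knock-in and 0.402, 0.291 and 0.335 in knockout (log2 1.75, adjusted p = 0.00934), and its call was lost without knock-in 0 or knockout 1 or 2 (highest adjusted p = 0.0773). Myl4, an atrial and embryonic myosin light chain, was at 10.7, 7.87 and 8.22 against 4.80, 4.12 and 2.63 FPKM (log2 1.26, adjusted p = 0.00843), lost without knock-in 0 or 2 (highest 0.0541). Slc6a4, the serotonin transporter, was at 1.99, 2.72 and 3.02 against 0.887, 0.663 and 1.22 FPKM (log2 1.47, adjusted p = 0.0482), lost without any 1 library except wild-type 2 (highest 0.196). Their groups did not overlap, and all 3 also lost the call with a term for skeletal muscle content.

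**Figure D2:**
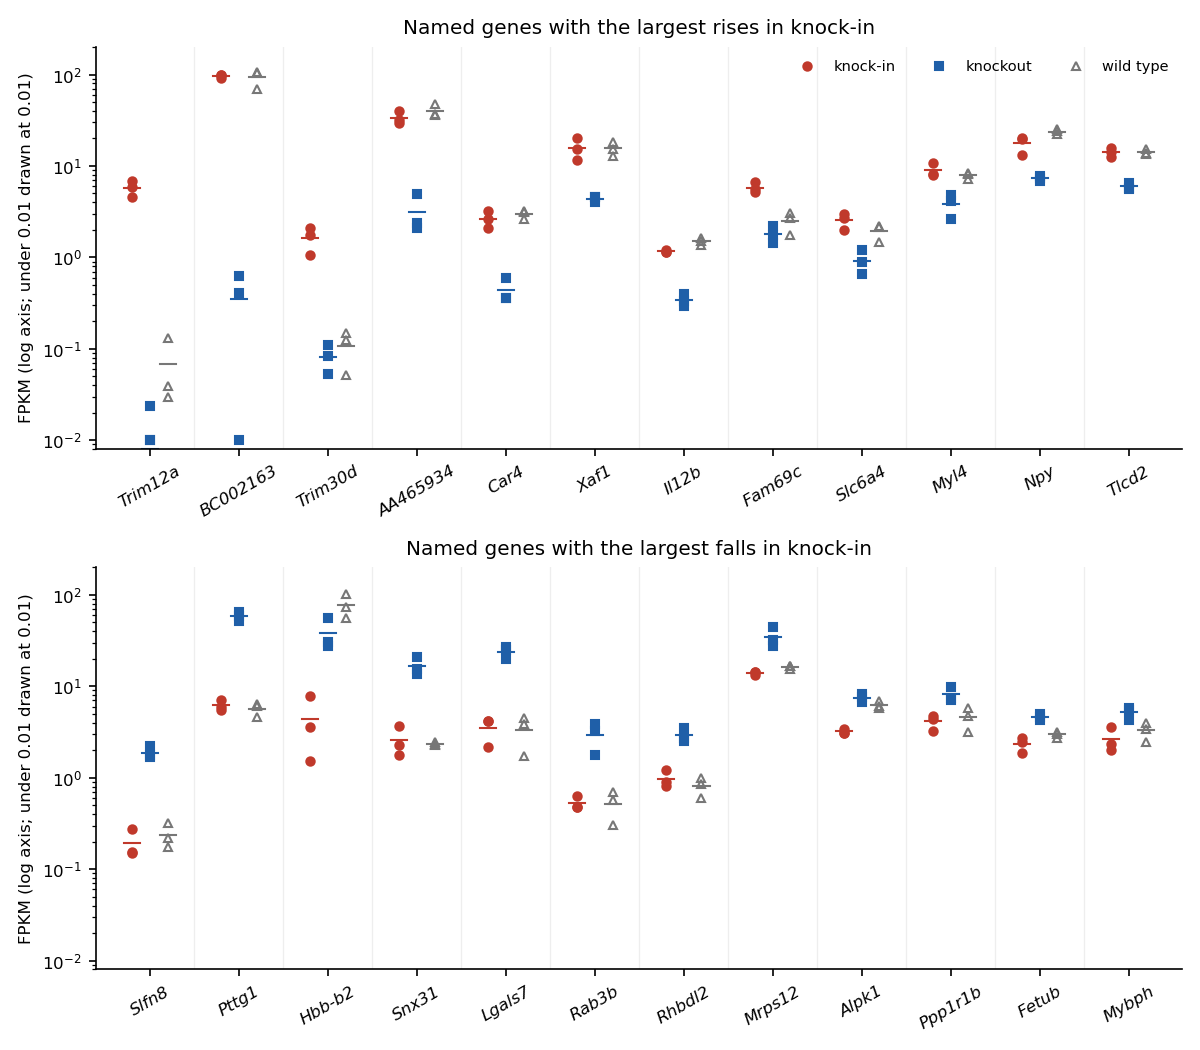
FPKM of each RPE/choroid library (log axis, values under 0.01 drawn at 0.01) for the 12 called genes with the largest rises and the 12 with the largest falls in knock-in, among those with a mean of at least 1 FPKM in a group and leaving out Rik, Gm and -ps symbols and sex-linked genes. Points are libraries and short bars are group means, for knock-in (red circles), knockout (blue squares) and wild type (grey triangles). Knock-in and knockout points do not overlap for any of the 24 genes, and the wild-type points of Trim12a and Trim30d lie by knockout while those of BC002163, Pttg1 and Slfn8 lie by knock-in.

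Pttg1, Slfn8 and Snx31 were high in knockout alone. Pttg1, the securin gene (chr11:43233749-43239750, mm9), was at 5.88, 7.09 and 5.52 FPKM in knock-in and at 64.8, 51.2 and 58.4 in knockout. It was 9.61-fold lower in knock-in (log2 -3.26, SE 0.152, adjusted p = 1.92e-05 by edgeR). Wild type was at 6.04, 6.34 and 4.58 FPKM. The other 21 tested genes of the cell cycle list were not called, and the list's median was log2 0.06. Slfn8 (chr11:82815659-82834312), of a family linked to growth arrest and viral restriction, was at 0.149, 0.153 and 0.278 against 1.67, 2.20 and 1.78 FPKM (log2 -3.29, SE 0.219, adjusted p = 1.43e-04), with wild type at 0.176, 0.217 and 0.323. It has the close relative Slfn9, between which and Slfn8 reads could be divided. Snx31, a sorting nexin of membrane recycling, was at 1.76, 2.28 and 3.69 against 13.6, 20.9 and 15.4 FPKM (log2 -2.70, SE 0.224, adjusted p = 0.00124). These 3 genes kept their call without each library.

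Further falls were those of the single genes Lgals7, Mrps12 and Alpk1. Lgals7, galectin-7 of stratified epithelia, was at 4.2, 2.15 and 4.12 FPKM in knock-in and 25.2, 26.8 and 19.9 in knockout (log2 -2.69, SE 0.323, adjusted p = 0.00712 by edgeR), lost without knock-in 0 (0.0559). The other 21 tested surface epithelium genes were not called, with Krt5 at 334 to 526 FPKM in knock-in and 380 to 435 in knockout. The median of that list was log2 0.16. Mrps12, of the mitochondrial ribosome, was at 13.4, 14.3 and 14.2 against 44.4, 31.8 and 27.8 FPKM (log2 -1.27, adjusted p = 0.00802), lost without knock-in 1 (0.0541). Mrps12 and Lgals7 start 0.12 Mb apart on chromosome 7. Alpk1, an innate kinase that senses a bacterial sugar, was at 3.12, 3.44 and 3.08 against 7.61, 6.68 and 8.29 FPKM (log2 -1.23, SE 0.0978, adjusted p = 4.88e-04). Its call held in all 9 fits with 1 library left out. Wild type was at 5.84, 6.87 and 6.07 FPKM for Alpk1, nearer to knockout, and by knock-in for Lgals7 and Mrps12.

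In 5 more named falls the call was lost in 4 to 7 of the 9 fits with 1 library left out. Rab3b, a GTPase of regulated secretion, was at 0.631, 0.477 and 0.474 FPKM in knock-in and 1.77, 3.88 and 3.24 in knockout (log2 -2.45, adjusted p = 0.0162 by edgeR), lost without knock-in 0, 1 or 2 or knockout 1 or 2 (highest 0.111). Rhbdl2, a rhomboid protease, changed by log2 -1.59 (adjusted p = 0.0465, highest 0.196) and Fetub, fetuin-B, by log2 -0.99 (0.0354, highest 0.158), both lost without any 1 library except wild-type 0 or 2. Ppp1r1b, the phosphatase inhibitor DARPP-32, changed by log2 -1.0 (0.0148), lost without knock-in 0, 1 or 2 or knockout 2 (highest 0.0852). Mybph, a myosin-binding protein, changed by log2 -0.96 (0.0484), lost without any 1 library except knock-in 0 or wild-type 2 (highest 0.214). Outside the rule for named genes, and picked after their values were seen, Skint3 and Nlrp1c-ps were listed at 0 in all knock-in and wild-type libraries. Their levels were low, and their fitted differences are not given because they depend on the prior count. Skint3 was at 0.172, 0.397 and 0.538 FPKM in knockout (adjusted p = 0.0450) and Nlrp1c-ps at 0.381, 0.249 and 0.380 (adjusted p = 0.0348). Of the 24 named rises and falls, the authors' deposited table calls 20, and besides Trim12a and BC002163 it leaves out Hbb-b2 (q = 0.0621) and Mybph (q = 0.312).

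The levels assigned to the beta-globin genes Hbb-b2 and Hbb-b1 differed in opposite directions. Hbb-b2 was at 7.87, 1.51 and 3.62 FPKM in knock-in and at 56.4, 30.8 and 27.6 in knockout, with 102, 72.8 and 56.4 in wild type (log2 -3.08, SE 0.458, adjusted p = 0.0465 by edgeR). The call was lost without any 1 library except wild-type 2 (highest 0.172) and in the fit of the compared groups alone. Hbb-b1, picked after its values were seen, was at 156, 66.3 and 88.7 FPKM in knock-in and under 0.001 in each knockout library, or 2528 against 0 fragments. It was not called (adjusted p = 0.182), and wild type was at 0.00205, 0 and 5.90 FPKM. These near-identical copies can share reads, so the split between them is uncertain. The Hbb-b1 level of every knock-in library lay above the Hbb-b2 level of every knockout library. The fall of Hbb-b2 therefore does not show a fall of beta-globin RNA as a whole. The erythroid enzyme Alas2 was at 6.53 to 13.6 FPKM in knock-in and 6.02 to 9.12 in knockout, with overlapping groups (log2 0.35, adjusted p = 0.697).

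Since Trim12a, Trim30d, Xaf1 and Slfn8 belong to families known to respond to interferon, their promoters were searched on both strands for the letters GAAA, any 2 bases, then GAAA again, the core repeat of interferon-stimulated response elements. Trim12a, Trim30d and Slfn8 each hold 1 match and are shown, from RefSeq (GRCm38.p6), all on the minus strand of the genome, with the match in capitals as it reads on the gene's strand.
Trim12a: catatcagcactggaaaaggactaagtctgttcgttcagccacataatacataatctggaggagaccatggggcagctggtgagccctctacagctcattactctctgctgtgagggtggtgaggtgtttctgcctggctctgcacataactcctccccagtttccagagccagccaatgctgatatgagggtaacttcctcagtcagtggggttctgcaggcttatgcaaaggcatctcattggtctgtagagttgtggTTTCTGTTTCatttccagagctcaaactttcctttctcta
Trim30d: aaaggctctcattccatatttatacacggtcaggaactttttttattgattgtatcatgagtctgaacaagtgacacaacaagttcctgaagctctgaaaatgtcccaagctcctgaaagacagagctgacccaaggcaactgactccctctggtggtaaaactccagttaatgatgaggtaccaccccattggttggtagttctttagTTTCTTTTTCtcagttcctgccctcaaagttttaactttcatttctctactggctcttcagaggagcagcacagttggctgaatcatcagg
Slfn8: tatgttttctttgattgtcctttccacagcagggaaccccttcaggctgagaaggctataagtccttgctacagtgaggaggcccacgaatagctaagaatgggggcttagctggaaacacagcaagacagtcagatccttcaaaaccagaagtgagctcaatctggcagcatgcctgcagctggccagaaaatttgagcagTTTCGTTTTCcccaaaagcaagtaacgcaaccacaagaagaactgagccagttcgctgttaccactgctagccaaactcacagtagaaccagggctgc
The windows are chr7:104315446-104315745, chr7:104507800-104508099 and chr11:83020761-83021060. Counted from the RefSeq gene start, the match begins at 10 in Trim12a, within the transcribed part, at -41 in Trim30d and at -48 in Slfn8. The windows were matched by symbol and may not be the start of the gene model that was counted. Xaf1 has 0 matches in its window. Of 7 promoters searched these 3 hold the letters, since those of AA465934, Pttg1 and Alpk1 were searched too and have 0 matches. Across the genome, 943 of 27025 RefSeq promoters of the same length (3.49%) hold the letters. The genes with a match include both directions of change, Trim12a and Trim30d higher and Slfn8 lower in knock-in. Of 37 tested genes of the interferon response list Xaf1 rose, 0 fell and 36 did not pass, beside 0.453% called over all genes. The list's median was log2 0.03. Whether interferon had a part in these differences was not tested.

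Most gene groups of this tissue held no called gene. Of 38 lists of genes for cell types, pathways and families, 30 had no called member and 8 had at least 1. In all, 8 of the 70 called genes were among the 807 tested list genes. Lists are described by counts and medians, beside 0.453% called and a median of log2 0.00 over all genes. At that share a list of this size would most often hold no call, so an empty list is no result about its genes. The lists were chosen with earlier results of these data known. Of 33 genes of RPE identity and transport 0 were called (median log2 0.08), as were 0 of 17 of the visual cycle (0.10), 0 of 20 of melanosome and pigment synthesis (0.07), 0 of 15 of outer segment phagocytosis (-0.03) and 0 of 39 of lysosome and autophagy (0.07). Lrat, which makes retinyl esters, was at 140, 139 and 212 FPKM in knock-in and 109, 112 and 164 in knockout (log2 0.35, adjusted p = 0.235 by edgeR). Its groups overlapped in FPKM but not in TMM-scaled CPM. In the fit of the compared groups alone, list members outside the calls given for their lists below were called too. They were Tyro3 of phagocytosis (log2 0.38, adjusted p = 0.0328 by edgeR), Glb1 of the lysosome (0.54, 0.00754), Irgm2 of the interferon response (-0.48, 0.0188), and Cpt1a (-0.32, 0.0259) and Ech1 (-0.39, 0.0396) of fatty acid oxidation. The others were Mb of muscle (0.35, 0.0428), Fosb of the immediate early genes (1.42, 0.0406), Cp of retinal stress (-0.37, 0.0469) and Abca6 (-1.18, 0.0475).

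Complement held a single called gene. C4b, the complement component cleaved in the classical and lectin pathways, was at 18.5, 19.9 and 18.5 FPKM in knock-in and 33.3, 27.6 and 38.5 in knockout (log2 -0.82, SE 0.131, adjusted p = 0.0450 by edgeR), with wild type at 18.5, 19.6 and 17.7. The call was lost without any 1 library except knockout 1 or 2 or wild-type 2 (highest 0.165), and the near-identical C4a could share its reads. Of 18 complement activation genes 0 rose, 1 fell and 17 did not pass (median log2 0.01), and of 9 regulators 0 were called (0.00). Cfi, the protease that inactivates C3b and C4b, was at 0.674, 1.04 and 1.36 against 2.74, 2.04 and 4.37 FPKM, with groups that did not overlap, and was called in the fit of the compared groups alone (log2 -1.58, adjusted p = 0.0483). C4b is also the 1 called gene among 17 of retinal stress and gliosis (median log2 -0.32). Microglia and macrophage genes (0 of 22 called, median log2 0.16) and antigen presentation genes (0 of 22, 0.24) had none.

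Stress and metabolic lists showed small medians without calls. Of 36 genes of the unfolded protein response and quality control of the endoplasmic reticulum, the compartment in which a misfolded transporter would be held, 0 were called and the median was log2 0.05. Their member Chac1, a glutathione-degrading enzyme of that response, was at 19.0, 14.8 and 13.2 FPKM in knock-in and 7.39, 5.20 and 8.15 in knockout, without overlap. It did not pass over all genes (log2 1.14, adjusted p = 0.114 by edgeR). It passed among the compared groups alone (1.13, 0.0190), by DESeq2 and without wild-type 1, and q was 0.00347 in the authors' deposited table. Cytosolic chaperones had 0 of 20 called (0.03). Cholesterol synthesis had 0 of 24 called with 23 members above 0 (0.27), and its Sqle, squalene epoxidase, was at 71.5, 74.5 and 88.2 against 56.5, 38.6 and 46.7 FPKM. Proteasome subunits had 0 of 36 called with 35 above 0 (0.12), and nuclear-encoded respiratory chain genes 0 of 46 with 43 above 0 (0.09). Members of such a list vary together within a library, so the number above 0 is not a count of independent genes.

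Antioxidant genes had 0 of 23 called (median log2 0.04). Gpx3, a secreted glutathione peroxidase, was at 76.7, 66.5 and 66.0 FPKM in knock-in and at 238, 214 and 385 in knockout, with wild type spread from 68.2 to 197. Mt2, a metallothionein, was at 510, 545 and 493 against 815, 717 and 738 FPKM, again without overlap. Both were called in the fit of the compared groups alone, Gpx3 at log2 -2.01 (adjusted p = 0.0309) and Mt2 at log2 -0.55 (0.0230).

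Lists of other cell types had medians on either side of 0. Rod (0 of 27 called, median log2 -0.51), cone (0 of 13, -0.53) and inner retinal neuron genes (0 of 19, -0.70) were on the lower side. Markers of T, B and mast cells were on the higher side (0 of 11, 0.50), with the mast cell proteases Cma1 at 14.6, 15.9 and 19.3 FPKM in knock-in and 11.8, 9.98 and 11.1 in knockout, and Cpa3 at 13.8, 16.9 and 24.3 against 11, 9.29 and 15.8. The pair was called among the compared groups alone, at log2 0.59 each (adjusted p = 0.0289 and 0.0446). Skeletal muscle (0 of 35, 0.19), endothelium and pericytes (0 of 30, -0.08), and fibroblast and matrix genes (0 of 43, -0.04) also had no call.

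**Figure D3:**
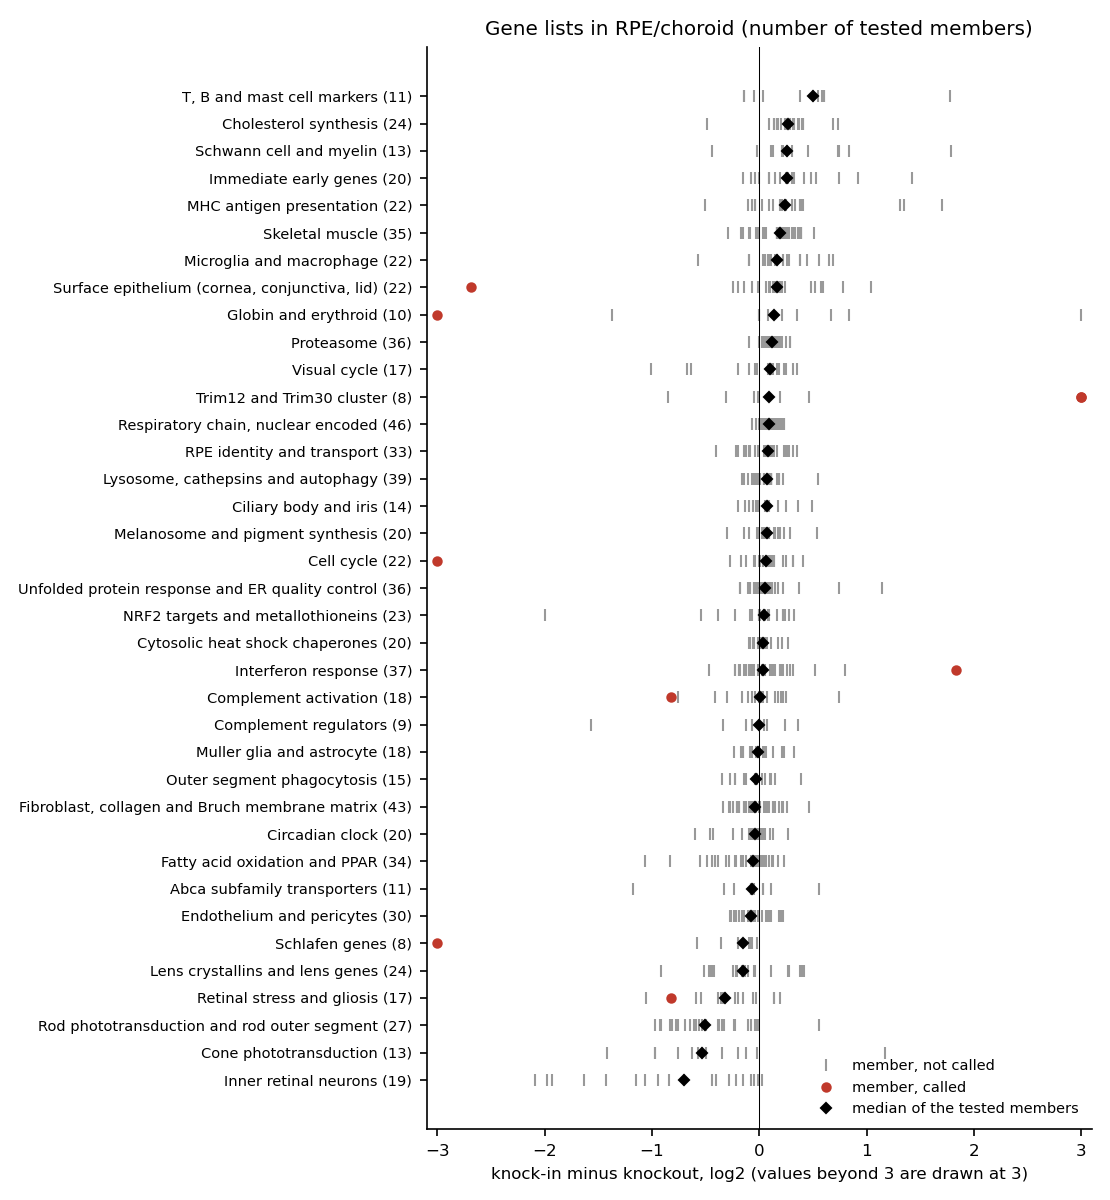
Difference between knock-in and knockout (log2, values beyond 3 drawn at 3) for each tested member of 37 gene lists, leaving out the sex-linked list, ordered by the list's median (black diamond), with the number of tested members in brackets. Called members are drawn in red.

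The called genes were unevenly placed along the genome. Chromosome 11 held 18 of the 70, 9 higher and 9 lower, which is 25.7% of the calls against 8.15% of the tested genes, or 1.43% of its 1260 tested genes. Chromosome 7 held 11 (0.937% of its genes), chromosome 4 held 8 (0.828%), and chromosomes 15 and 17 held 7 each (1.14% and 0.955%). Chromosomes 2, 5, 9, 10, 13 and 19 held none, and chromosome 2 alone has 1185 tested genes. AA465934, Slfn8, Pttg1, Il12b, Xaf1, Car4, Tlcd2, Slc6a4, Myl4 and Ppp1r1b, all described above, are on chromosome 11. Of the 70 genes, 25 had another called gene starting within 1 Mb. No matching count was made for other tested genes, so gene density is not accounted for in this number.

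**Figure D4:**
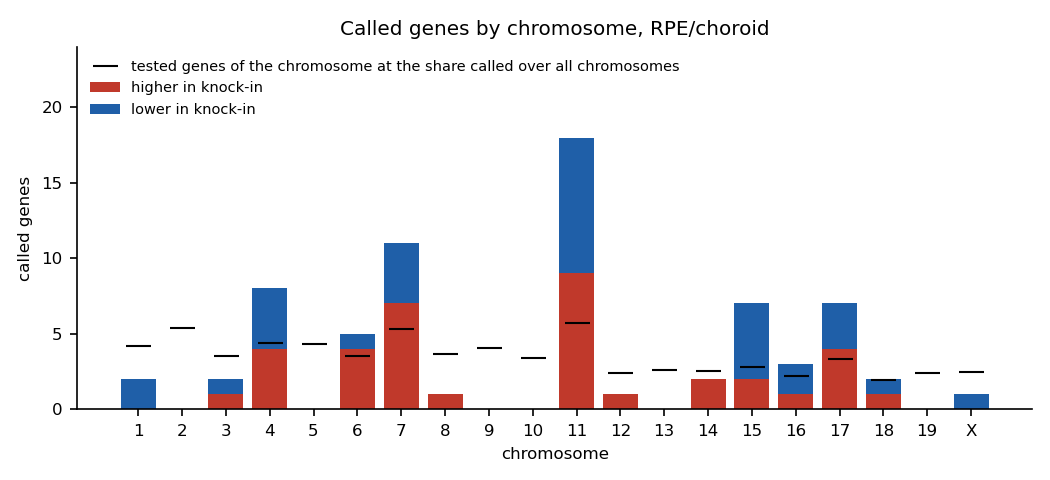
Number of called genes per chromosome in RPE/choroid, stacked as higher (red) and lower (blue) in knock-in. The black dashes mark the number a chromosome would hold at the share of 0.453% called over all chromosomes, and chromosome 11 has 18 calls.

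There were 2 runs of at least 3 called genes with starts within 1 Mb of each other, given by their mm9 positions. On chromosome 17, from 78907402 to 79451245, 4 of 12 tested genes were called, in alternating directions. Vit, vitrin of the extracellular matrix, fell by 0.58 on the log2 scale (adjusted p = 0.0269 by edgeR), and its call was lost without knock-in 0, 1 or 2 or knockout 0 or 2 (highest 0.115). Ccdc75 rose by log2 0.53 (0.00655), with 6.69, 8.15 and 8.66 FPKM in knock-in and 4.72, 5.55 and 6.18 in knockout. Gm6548 fell by 1.15 on the log2 scale (0.00218), with 3.61, 4.40 and 4.99 against 9.61, 9.70 and 9.08 FPKM, and starts 0.01 Mb from Ccdc75. Qpct, glutaminyl cyclase, rose by log2 0.43 (0.0482), lost without any 1 library except wild-type 1 or 2 (highest 0.206). The run on chromosome 7, from 110961037 to 111618528, is made of Hbb-b2, Trim12a and Trim30d, 3 of 9 tested genes. It reaches 3 genes only with Hbb-b2, whose call was lost without any 1 library except wild-type 2.

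The surroundings of Abca4 on chromosome 3 held 1 called gene. Within 10 Mb of Abca4, 86 genes were tested and Alpk1 was called (1.16%), with a median of log2 -0.01. It is 1 of 2 called genes on the chromosome, the other being Tlr2, a receptor for bacterial lipoproteins, at 10.3, 9.84 and 10.9 FPKM in knock-in and 7.32, 6.72 and 7.93 in knockout (log2 0.54, adjusted p = 0.0135). Tlr2 was named for its place on this chromosome after the values were seen.

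The same genotypes were compared in retina, where 185 of 14699 genes were called (1.26%). Of the 70 genes called in RPE/choroid, 56 were tested in retina and 13 were called there too, 8 higher and 5 lower in knock-in, all 13 in the same direction in both tissues. The 13 are 18.6% of the RPE/choroid calls and 7.03% of the retinal calls. Retina and RPE/choroid libraries may come from the same mice, so the tissues are not known to be independent. Pttg1 had the largest shared difference, at 1.37, 0.687 and 0.373 FPKM in knock-in and 14.1, 13.4 and 33.5 in knockout retina (log2 -4.46, adjusted p = 0.00488 by edgeR). Alpk1 was at 0.635, 0.621 and 0.534 against 2.29, 2.40 and 2.50 FPKM in retina (log2 -1.99, adjusted p = 1.04e-06). For both genes the groups were apart in each tissue.

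The shared rises were under 2-fold in RPE/choroid, and for those described here wild type lay nearer to knock-in than to knockout. Against wild type, knockout RPE/choroid was at log2 -0.65 for Ppt1, -0.72 for Tuba1c, -0.66 for Alad, -0.63 for Hdhd3 and -0.51 for Polr3d. Knock-in was at 0.02, 0.09, -0.06, 0.04 and 0.06 in the same order. Ppt1, the lysosomal thioesterase that removes palmitate from proteins, was at 69.7, 74.1 and 117 FPKM in knock-in and 47.7, 46.5 and 67.7 in knockout RPE/choroid (log2 0.67, adjusted p = 9.01e-04 by edgeR) and differed by log2 0.63 in retina (adjusted p = 0.0111). Tuba1c, an alpha-tubulin with close relatives, rose by log2 0.81 (0.00567) and in retina by 1.01 (0.00243). Alad and Hdhd3 start 0.01 Mb apart on chromosome 4. Alad, an enzyme of heme synthesis, rose by log2 0.60 (0.0335) and in retina by 0.68 (0.0199), and Hdhd3 by 0.66 (0.0165) and 0.98 (0.0249). Both lost the RPE/choroid call without any 1 knock-in or knockout library. Polr3d, a subunit of RNA polymerase III, rose by 0.58 (0.0201) and 0.60 (0.00446). Its RPE/choroid call was lost without knock-in 0 or 1 or any knockout library.

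The shared falls besides Pttg1 and Alpk1 were Gm6548, Pigy and Elk1. Gm6548 changed by log2 -1.15 in RPE/choroid and -1.18 in retina (adjusted p = 0.00218 and 0.0176 by edgeR). Pigy, of the synthesis of membrane anchors, changed by log2 -0.71 and -0.29 (0.0309 and 0.0264), and its RPE/choroid call was lost without any 1 library except knockout 2 or wild-type 0 or 2. Elk1, a growth-factor responsive transcription factor, changed by -0.62 and -0.37 (0.0297 and 0.0411), and is the 1 called gene on the X chromosome. It was named after its values were seen.

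Some of the large RPE/choroid differences did not pass the test in retina. BC002163 differed by log2 2.31 in retina (adjusted p = 0.495 by edgeR), with 77.5, 89.0 and 99.4 FPKM in knock-in and 45.6, 0.853 and 0 in knockout, and q was 0.00293 in the authors' deposited table. AA465934 was at 75.5, 79.3 and 66.2 FPKM in knock-in and 49.3, 47.1 and 12 in knockout retina (log2 0.99, adjusted p = 0.405). For both transcripts every knockout retina was below every knock-in retina, the direction seen in RPE/choroid. The test of the difference between tissues passed for neither, with adjusted p = 0.253 for BC002163 and 0.0837 for AA465934. That test called 27 of 16222 genes (0.166%), 8 of them among the 70. Trim30d had the largest of these among genes tested in both tissues, with all 6 retinal libraries of the compared groups at 0.0983 to 0.2 FPKM and a difference between tissues of log2 4.56 (adjusted p = 5.15e-04).

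**Figure D5:**
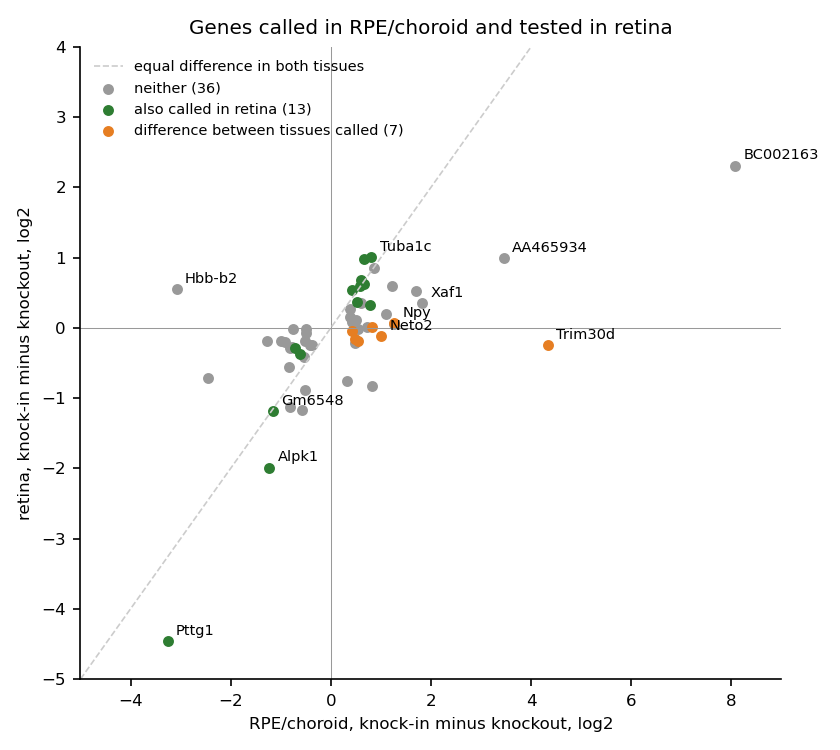
Knock-in minus knockout in retina (log2, vertical axis) against the same difference in RPE/choroid (log2, horizontal axis) for the 56 genes called in RPE/choroid and tested in retina. The 13 genes also called in retina (green) have the same sign in both tissues, and the 7 with a called difference between tissues (orange) lie near 0 in retina.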

How the data were processed

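RNA of dissected RPE/choroid and retina was sequenced after removal of ribosomal RNA with a stranded kit, as 100 bp pairs, per the labels' protocols. The submitters' processing notes name the mm9 build, TopHat, Bowtie2 and Cufflinks. The sources used here give neither their versions nor the use of strand in counting. The deposited tables hold expected counts (fragments before scaling) per gene and library, and FPKM, per the file headers. Of the RPE/choroid values 98.4% were whole numbers, and the others were rounded. The tables number the libraries of each genotype 0 to 2, and these numbers are not tied to the labels' replicate numbers, so a library is known by its group only. The authors' comparison table lists p-values and q-values. Its fold changes were damaged by spreadsheet software, so directions were taken from the deposited FPKM. In each table, 25 gene names turned to dates were left unnamed. The tables hold 0 columns of other samples and mark 3 RPE/choroid estimates as failed.

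The test was edgeR 4.0.16 under R 4.3.3 (robust quasi-likelihood, TMM, filterByExpr), on the 9 RPE/choroid libraries with the contrast knock-in minus knockout. The biological coefficient of variation was 0.154, and 0.103 in the 6 compared libraries. Retina was fitted likewise, and the difference between tissues as an interaction over all 18 libraries. SE is the log2 difference divided by the square root of F. P-values were adjusted by Benjamini-Hochberg over all genes tested. FPKM are used as levels and adjusted p below 0.05 as a call. The fitted log2 of genes near 0 depends on the prior count. Fragment ratios carry exact 95% intervals, which cover counting error only. Positions are mm9 as deposited. Sequences are of GRCm38 and were matched by symbol.

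The members and the gene lists were chosen with earlier results of these data known. Named genes are Abca4, then, of called genes, the top 12 upward and top 12 downward by log2 with groups that do not overlap in TMM-scaled CPM and a mean FPKM of at least 1 in a group (without small RNAs, Rik, Gm, LOC and -ps symbols and sex-linked genes), up to 4 called or else 2 members of each list, called genes within 10 Mb of Abca4, runs of at least 3 called genes within 1 Mb, and the 10 strongest shared with retina. On simulated data made from these libraries, the RPE/choroid test found 56.7% of 1.5-fold, 79.1% of 2-fold and 93.9% of 4-fold changes. Of 173 calls among 15375 genes, 20 were false, a larger share than the 0.05 at which calls were made. Calls near that threshold are therefore less certain than their adjusted p states. Pairs of libraries of a group had r from 0.983 to 0.991 and none was a copy. Alternatives were DESeq2 1.42.0, RLE scaling, limma 3.58.1 on log2(FPKM + 1) and log2(FPKM + 0.1), glmTreat against 1.5-fold, other filters, the compared groups only, a replicate block, each library left out, and terms for the rod and muscle scores (mean log2 CPM of the list, scaled, without Abca4).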

Additional observations from a re-analysis of the deposited data

Results flagged for a closer look

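For 8 of the 70 genes called in RPE/choroid, the knock-in minus knockout difference was itself different from that in retina by the interaction test of edgeR. Trim30d differed between tissues by log2 4.56, with log2 4.34 in RPE/choroid and -0.25 in retina. Npy differed by 1.16 (1.26 and 0.07), and Neto2, an auxiliary subunit of kainate receptors, by 1.11 (1.01 and -0.12). Arl6ip1, which shapes the endoplasmic reticulum, differed by 0.77, with 331, 361 and 598 FPKM in knock-in and 236, 188 and 293 in knockout RPE/choroid. Fxyd1, a regulator of the sodium pump, differed by 0.71, Bcat1, which starts the breakdown of branched-chain amino acids, by 0.61, and Pepd, a dipeptidase that releases proline, by 0.45. Nov, a matricellular protein, differed by -2.70, but its retinal counts were too low for the test in retina alone. Of the 27 genes with a called difference between tissues, 4 and 5 were also called by limma on log2(FPKM + 1) and log2(FPKM + 0.1). Neto2, Arl6ip1, Fxyd1, Bcat1, Pepd and Nov are named here because of this difference.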

How the results depend on the processing

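The 70 calls became 313 with DESeq2, 26 and 23 with limma on log2(FPKM + 1) and log2(FPKM + 0.1), 198 with the compared groups only, 180 with the rod term, 26 with the muscle term, 13 against 1.5-fold, and 28 to 190 with 1 library left out. An alternative chosen after seeing the data, the compared groups only with 1 of their libraries left out, gave 74 to 345, with 106 without knock-in 0 and 345 without knockout 0. RLE scaling, no filter and a mean FPKM of at least 1 gave 72, 73 and 78. Abca4 passed with DESeq2, the compared groups only (log2 0.55 each), the rod term (0.64) and without wild-type 2 (0.56), with log2 0.49 to 0.58 over the left-out libraries and 0.49 to 0.59 over those of the compared groups only, where each of the 6 fits passed. With the table number as a replicate block, 36 genes were called (34 of the 70) and Abca4 was at log2 0.55 (adjusted p = 0.230). In log2 TMM-scaled CPM, same-numbered knock-in and knockout libraries deviated from their group means with r of -0.07, 0.057 and -0.107. Differently numbered ones gave -0.092 to 0.146. With 3 libraries a group, these values cannot decide whether a number marks a shared batch. In FPKM, Abi3bp, picked after its values were seen, rose from number 0 to 2 in knock-in (30.0, 36.2, 46.4), knockout (38.4, 48.0, 62.3) and wild type (37.1, 41.4, 47.1). Pigy, picked likewise, rose in knock-in (4.24, 4.87, 8.03), knockout (7.58, 9.12, 10.4) and wild type (4.71, 5.62, 8.90). Npr3 rose, and Acbd4 and Mvk fell, from number 0 to 2 in each of these groups. How many genes do so was not counted. Groups that overlap in FPKM can therefore lie apart number by number, as for Lrat. The 185 retinal calls became 324 with DESeq2, 20 with either limma fit, 99 with the rod term, 16 against 1.5-fold, and 103 to 216 with 1 library left out. The 27 differences between tissues became 160 with DESeq2, 12 with limma on log2(FPKM + 0.1), of which 5 are among the 27 (26 and 4 with a pseudocount of 1), 54 with the compared groups only, 14 with the block, and 7 to 94 with 1 library left out. Abca4 was higher in knock-in in each fit. The balance of RPE/choroid calls did change, from 37 higher and 33 lower to 153 and 160 with DESeq2 and 93 and 105 with the compared groups only. That of the differences between tissues went from 16 and 11 to 19 and 35 with the compared groups only. The cause of these shifts was not tested. Of the 35 named called genes, 17 kept their call without each library. With 3 libraries a group, 56.7% of simulated 1.5-fold changes were found, so smaller differences can be missed.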
